A study of Mus musculus with 4 samples.

Results

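The sine oculis-related homeobox genes *Six2* to *Six6* and their *Eya* cofactors were followed in whole mouse embryos. The members are the 9 genes *Six2*, *Six3*, *Six4*, *Six5*, *Six6*, *Eya1*, *Eya2*, *Eya3* and *Eya4*, taken by gene name from the array annotation, out of 37325 gene or transcript names on the array. They have 22 probes, each a stretch of 60 bases, of which 14 were well above background on all 4 arrays, 4 on some arrays and 4 on none. Well above background is the scanner software's own mark.

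Total RNA of whole C57BL/6 embryos was labelled with Cy3 and hybridized to 4 one-colour Agilent mouse arrays on 1 slide. The groups were wild type (WT) at E8.5, *Dyrk2*-/- at E8.5, WT at E10.5 and *Dyrk2*-/- at E10.5, with 1 array each, where E8.5 and E10.5 are embryonic days. The knockout allele was a small deletion made with the CRISPR/Cas9 nickase system. Which of the deletion lines was used, and how many embryos gave each RNA, is not given in the sources used here.

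Sine oculis-related proteins bind DNA through a homeodomain, and Eya proteins, which lack a DNA-binding domain of their own, join them as coactivators with phosphatase activity. The families act, often together with Pax and Dach proteins, in the sense organ placodes, the kidney, the eye and the skeletal muscle. *Six3* and *Six6* are known mainly for the forebrain and the eye.

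Values are log2 signal minus the 75th percentile of the array, so that a value is relative to the other probes of its array. With 1 array per group a difference at a stage has no replicate check and was not tested, and precision is limited by how few arrays there are. The error given for a log2 ratio is the one the scanner software models for the signal of the spots. It covers the measurement of the spots and not the spread between embryos. In RNA of a whole embryo, fewer cells of a type and less RNA per cell cannot be told apart.

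The targeted gene was examined first. The *Dyrk2* probe with the highest mean signal read 0.06 on the WT and 0.76 on the *Dyrk2*-/- labelled array at E8.5, with −0.31 and 0.34 at E10.5. The other *Dyrk2* probe read −0.23 (WT) and −0.20 at E8.5, with −0.28 (WT) and 0.00 at E10.5. Neither probe was thus lower on the arrays labelled *Dyrk2*-/-, except that the log2 ratio of the other probe at E8.5, 0.03, became −0.50 under scaling by the spike-in controls and −0.23 without scaling. A small deletion need not lower the transcript, so that these probes did not check the labels, and every direction between genotypes below rests on the labels. Whether the probes lie outside the deleted part is not given in the sources used here.

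*Six2* keeps the progenitor cells of the kidney nephron from differentiating. Its probe with the highest mean signal (chromosome 17 of mm9, 86083634 to 86083693, minus strand) read 1.68 on the WT and 2.0 on the *Dyrk2*-/- labelled array at E8.5, with 3.03 and 2.52 at E10.5. Both E10.5 arrays were above both E8.5 arrays. Between the labels the order turned, with the WT array lower at E8.5 and higher at E10.5. The log2 ratio of *Dyrk2*-/- over WT was 0.33 (scanner error 0.20) at E8.5 and −0.50 (scanner error 0.20) at E10.5, and neither reached 1.5-fold. A dimmer *Six2* probe read −4.37 (WT) and −5.19 at E8.5, with −3.70 (WT) and −4.45 at E10.5, and its −5.19 was not well above background. On the array labelled *Dyrk2*-/- it was 1.68-fold lower at E10.5 and at least 1.11-fold lower at E8.5. The 2 probes thus differed in direction at E8.5, which depended on the processing. With the normexp background correction the dimmer probe had log2 ratios of −0.12 (E10.5) and 0.02 (E8.5), neither past 1.5-fold. Scaling by the spike-in controls put both probes lower at E8.5, with −0.21 for the leading and −1.35 for the dimmer one.

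*Six4* acts in the muscle precursors and in sensory ganglia. Its leading probe (chromosome 12, 74201246 to 74201305) read 1.70 on the WT and 2.0 on the *Dyrk2*-/- labelled array at E8.5, with 1.70 and 1.61 at E10.5. A further probe on the same chromosome (74201054 to 74201113) read 1.45 and 1.70, and 1.64 and 1.64. Both probes had their highest value on the E8.5 array labelled *Dyrk2*-/-, and the other 3 arrays lay within 0.20 of each other at either probe. The log2 ratio at E8.5 was 0.30 at the leading probe and 0.25 at the further one, each with a scanner error of 0.20. Under scaling by the spike-in controls these ratios were −0.24 and −0.29, and without scaling 0.04 and −0.01. The E8.5 array labelled *Dyrk2*-/- was then, under the spike-in scaling, the lowest at both probes. Of the remaining *Six4* probes, 1 stayed below the background mark on all 4 arrays, and 1 was well above background on the WT E8.5 array (−3.36) and the *Dyrk2*-/- labelled E10.5 array (−4.43) and not on the others (−4.15 and −5.23).

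*Six5*, the neighbour of the myotonic dystrophy kinase gene, has 1 probe (chromosome 7, 19683437 to 19683496). It read 0.55 on the WT and 0.99 on the *Dyrk2*-/- labelled array at E8.5, with 1.33 and 1.30 at E10.5. The WT E8.5 array was the lowest and both E10.5 arrays lay close together at the top. The log2 ratio between the labels was 0.44 at E8.5 (scanner error 0.20), below 1.5-fold, and −0.03 at E10.5.

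*Six3* is needed for the forebrain and the lens. Its leading probe (chromosome 17, 86023349 to 86023408, plus strand) read 0.08 on the WT and 0.02 on the *Dyrk2*-/- labelled array at E8.5, with −0.77 and −1.24 at E10.5. Both E10.5 arrays were below both E8.5 arrays. The log2 ratio between the labels was −0.06 at E8.5, against −0.48 (scanner error 0.21) at E10.5. Its other 2 probes were not well above background on any array. *Six3* and *Six2* are neighbours on chromosome 17, with 0 other protein-coding genes between them in the RefSeq annotation of GRCm38.p6, and between the stages their leading probes differed in opposite directions, save that the mean over the *Six3* probes was 0.14 higher at E10.5 on the WT arrays.

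*Six6*, a gene of the retina and the pituitary, has 1 probe (chromosome 12, 74045825 to 74045884). It read −5.25 on the WT E8.5 array, where it was not well above background, −3.60 on the *Dyrk2*-/- labelled E8.5 array, and −2.82 and −2.81 at E10.5. The WT E8.5 array was thus the only one without a measured signal, and both E10.5 arrays were equal within the scanner error. Against the lowest value of a probe well above background on that array, −4.82, the signal at E8.5 was at least 2.33-fold higher on the array labelled *Dyrk2*-/-. This is a dim probe, and under the normexp background correction its log2 ratio at E8.5 was 0.54, below 1.5-fold and short of that bound.

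Among the cofactors, *Eya1* is the gene of branchio-oto-renal syndrome, in which the ear, the kidney and the branchial arches are affected. Its 3 probes were well above background on all 4 arrays. The probe with the highest mean signal (chromosome 1, 14159982 to 14160041) read 6.38 on the WT and 6.68 on the *Dyrk2*-/- labelled array at E8.5, with 6.10 and 6.06 at E10.5. The next (14291353 to 14291412) read −1.38 and −1.09, and −0.52 and −0.30. The dimmest (14160732 to 14160791) read −4.10 and −3.54, and −2.91 and −2.92. The first was lower on both E10.5 arrays than on both E8.5 arrays, and the other 2 were higher on both.

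The sequences of these *Eya1* probes differ in kind, and the last 30 bases of each are shown for that reason, 5′ to 3′ on the minus strand of chromosome 1 (mm9). Capitals mark a run of 1 repeated pair of bases, which spans 34 bases of the first probe.
*Eya1* highest probe, chr1:14159982-14160011: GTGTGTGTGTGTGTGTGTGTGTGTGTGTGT
*Eya1* next probe, chr1:14291353-14291382: cacccactgctggatctgcctcagatagac
*Eya1* dimmest probe, chr1:14160732-14160761: tcacacagtgtggtgtgtcttggctagatt
The longest such run was 3 bases in the next probe and 6 in the dimmest.

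On the whole array 29 probes, 1 of them from the members, hold a run of at least 30 bases of 1 repeated pair. All 29 were well above background on the 4 arrays. On the WT arrays 22 of the 29 were lower at E10.5 than at E8.5, with a median log2 difference of −0.33, where 55.6% of all genes were lower, and on the arrays labelled *Dyrk2*-/- 21 were, with a median of −0.46, where 54.3% of all genes were. The stage difference of the *Eya1* repeat probe was −0.28 and −0.62. What such probes bind was not tested, and the stage direction of *Eya1* is therefore given for each probe. This check of repeats was chosen after the values had been seen.

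*Eya2*, a gene of placodes and muscle precursors, has 2 probes. The leading one (chromosome 2, 165597072 to 165597131) read 2.35 on the WT and 2.10 on the *Dyrk2*-/- labelled array at E8.5, with 3.22 and 2.90 at E10.5. The other (165594761 to 165594820) read −1.46 and −1.52, and −0.46 and −0.82. Both were higher on both E10.5 arrays, and at each stage the array labelled *Dyrk2*-/- was the lower one. The log2 ratios between the labels were −0.25 and −0.32 at the leading probe (scanner error 0.20 at each stage) and −0.05 and −0.36 at the other (0.21). At that other probe the E8.5 ratio lay within its scanner error and turned to 0.04 under normexp.

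*Eya3* is a broadly expressed cofactor. Its leading probe (chromosome 4, 132280589 to 132280648) read 3.61 on the WT and 3.53 on the *Dyrk2*-/- labelled array at E8.5, with 3.39 and 3.52 at E10.5. Another, which spans 2700 bases of the genome and so crosses an intron, read −2.17 and −2.25, and −2.14 and −2.15. At neither probe did the arrays of a pair, by genotype or by stage, differ by 1.5-fold, save that under the spike-in scaling the log2 ratio between the labels at E8.5 was −0.62 at either probe, and the stage difference on the arrays labelled *Dyrk2*-/- was 0.62 at the leading and 0.73 at the other probe. The remaining *Eya3* probe was below the background mark on all 4 arrays.

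*Eya4*, a gene of hearing loss and of the heart muscle, has 3 probes. Its leading probe (chromosome 10, 22822975 to 22823034) read −2.28 on the WT and −2.04 on the *Dyrk2*-/- labelled array at E8.5, with 0.08 and −0.33 at E10.5. The next (22824002 to 22824061) read −3.11 and −2.75, and −0.74 and −1.11. At both probes the arrays of E10.5 were above those of E8.5, and within a stage the WT array was the lower one at E8.5 and the higher one at E10.5. The third, which crosses an intron (2288 bases), was well above background only at E10.5, at −3.35 and −3.87. The log2 ratio between the labels at the leading probe was 0.25 (scanner error 0.22) at E8.5 and −0.41 (scanner error 0.20) at E10.5, below 1.5-fold at both stages.

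**Figure D1:**
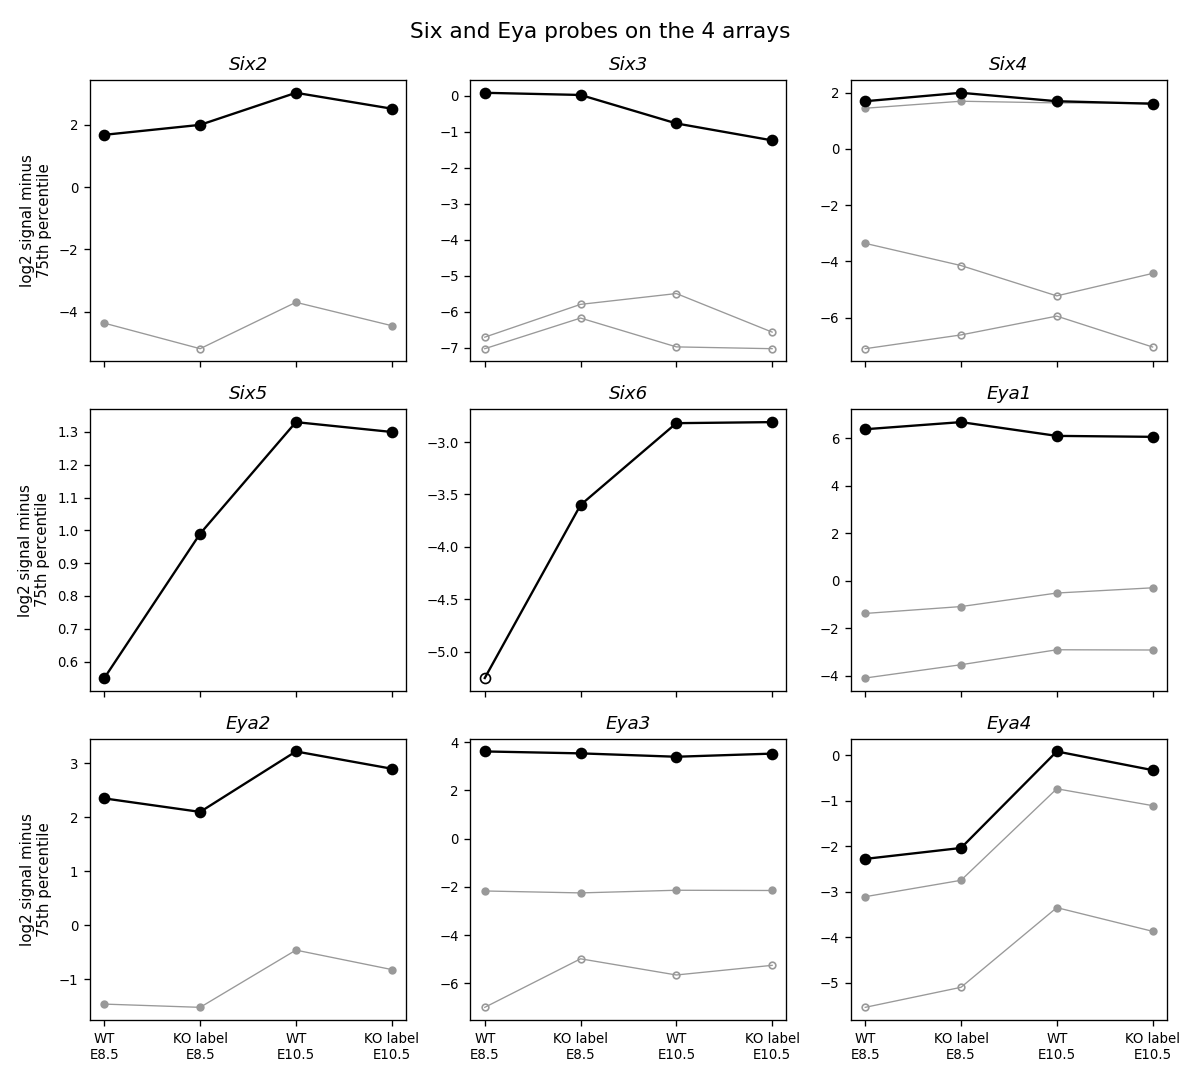
Log2 signal minus the 75th percentile of the array (y axis, a scale of its own in each panel) of each probe of the 9 genes on the 4 arrays (x axis). Black marks the probe with the highest mean signal and grey the other probes, filled circles are well above background, open circles are not, and lines join the values of 1 probe; the leading *Eya4* probe lies at −2.28 and −2.04 at E8.5, against 0.08 and −0.33 at E10.5.

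Between the genotypes at E8.5, 1 of the 9 genes, *Six6*, was higher by at least 1.5-fold on the array labelled *Dyrk2*-/- and 0 were lower, taking for each gene the probe with the highest mean signal. Of all 20848 genes compared at E8.5, 5.14% were higher by that much and 6.52% lower. At E10.5, 0 of the 9 genes were higher and 0 lower by 1.5-fold, where 3.5% and 4.22% of 21351 genes were. With 9 genes, counts of 1 and 0 are close to these shares. The median log2 ratio of the members was 0.30 at E8.5 against −0.02 over all genes. At E10.5 it was −0.09 against 0.00. Under scaling by the spike-in controls the median of all genes became −0.56 at E8.5, with 0.16 at E10.5, and that of the members −0.24 and 0.07, so that the sign of the members' median turned at both stages while its side of the median of all genes did not. Under that scaling *Six6* alone was above 0 at E8.5 (1.12), *Six3* (−0.59), *Eya2* (−0.78) and *Eya3* (−0.62) were lower by 1.5-fold, where 46.0% of all genes were, and *Six4*, *Six5* and *Eya1* turned to 0.07, 0.13 and 0.12 at E10.5.

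All 4 arrays were also fitted together with limma, genotype and embryonic day being additive terms that leave 1 residual degree of freedom. For genotype, 0 of the 18 member probes that passed the filter (well above background on 2 arrays or more) had an adjusted p under 0.05 (Benjamini-Hochberg over all 32289 probes), where 0.0186% of all probes had. At an unadjusted p under 0.05 there was 1, the leading *Eya2* probe (log2 difference −0.28, SE 0.12, adjusted p = 1.0), against 1592 of all probes.

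**Figure D2:**
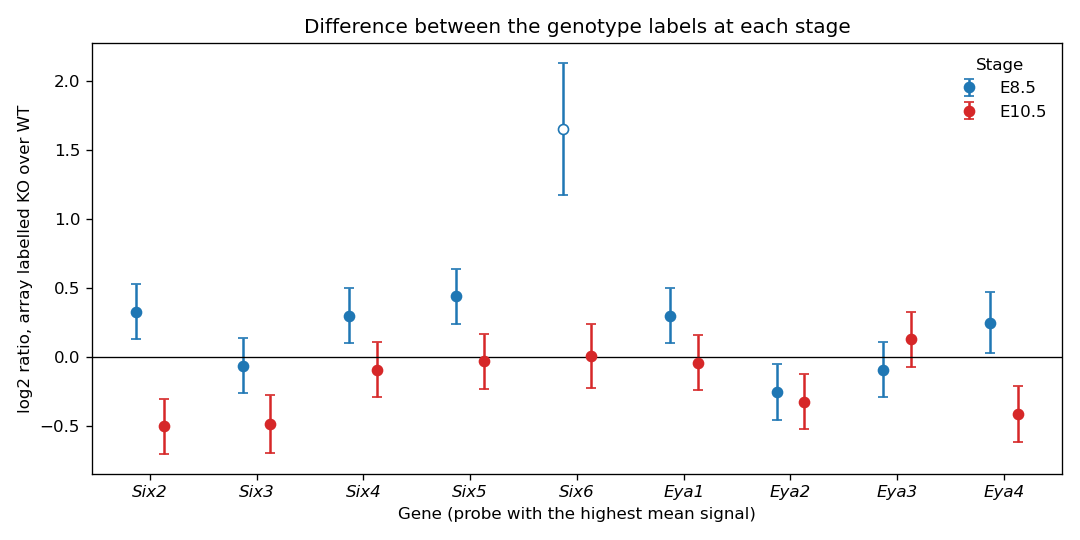
Log2 ratio of the array labelled *Dyrk2*-/- (KO) over the WT array (y axis) at E8.5 (blue) and E10.5 (red) for the probe with the highest mean signal of each gene (x axis). Bars are the scanner software's error of the ratio, and the open circle marks *Six6* at E8.5, whose WT value was not well above background; *Six2* lies at 0.33 at E8.5, against −0.50 at E10.5.

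Differences between the stages were larger. On the WT arrays 5 of the 9 members were higher at E10.5 by at least 1.5-fold, where 18.8% of 21788 genes were, and 1 was lower, where 17.5% were. *Six6* was counted there only through the E10.5 array. Over the 8 members measured on both arrays 4 were higher and 1 lower, where 15.0% and 15.1% of 19426 genes were. *Eya4* was 5.13-fold higher, *Six6* at least 4.01-fold, *Six2* 2.55-fold, *Eya2* 1.83-fold and *Six5* 1.71-fold, and *Six3* was 1.79-fold lower. Under the normexp background correction the log2 difference of *Six6* was 0.68, short of its bound, and that of *Eya4* 1.74. On the arrays labelled *Dyrk2*-/- 3 were higher, where 17.5% of 21405 genes were, and 2 lower, where 13.9% were. There *Eya4* was 3.25-fold, *Eya2* 1.74-fold and *Six6* 1.73-fold higher, and *Six3* was 2.40-fold and the repeat probe of *Eya1* 1.54-fold lower. Under normexp the log2 difference of *Six6* there was 0.21, below 1.5-fold, and that of *Eya4* 1.18. Thus 2 members were higher and 2 lower, where 8.25% and 8.14% of all genes were. The counts in this pair were 6 and 1 under the spike-in scaling, where 49.1% of all genes were higher and 4.69% lower. Without scaling they were 5 and 1, where 28.3% and 7.29% were. After quantile normalization they were 4 and 1, where 17.2% and 13.8% were, and in the deposited table also 4 and 1, where 17.2% and 13.7% were. With the next *Eya1* probe in its place, *Eya1* was 1.80-fold higher at E10.5 in the WT pair and 1.73-fold higher in the other. The median log2 difference of the members was 0.78 on the WT arrays against −0.08 over all genes, and 0.31 on the others against −0.05. Over members well above background on all 4 arrays it was 0.39 and 0.15, and on the arrays labelled *Dyrk2*-/- it was 0.93 under the spike-in scaling, where that of all genes was 0.57, and 0.52 without repeat probes.

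The same limma model gave the stage over both genotypes. In it the WT and the *Dyrk2*-/- labelled array of a stage stand in for replicates. Its residual is the difference of the genotype ratios between the stages. The SEs and p-values of this model therefore do not measure the spread between embryos of a group. Of the 18 member probes 12 had an adjusted p under 0.05, 10 of them higher at E10.5, where 15.7% of all probes were, and 2 lower, where 19.6% were. The leading probe of *Eya4* rose by a log2 difference of 2.03 (SE 0.19, adjusted p = 6.48e-05), and its next by 2.01 (SE 0.21, adjusted p = 0.000145), each higher in both genotypes. *Eya2* rose at both probes (0.83, SE 0.12, adjusted p = 0.000806, and 0.85, SE 0.16, adjusted p = 0.00365), and *Six2* rose at its leading probe (0.94, SE 0.18, adjusted p = 0.00421). *Six3* fell (−1.05, SE 0.16, adjusted p = 0.00106). The *Eya1* repeat probe fell (−0.45, SE 0.12, adjusted p = 0.0208), while the other 2 rose (0.82 and 0.91, adjusted p = 0.00283 and 0.0312). *Six5* rose as well (0.54, adjusted p = 0.0210). *Six6* had an adjusted p of 0.0122, with no measured level on the WT E8.5 array. The third *Eya4* probe passed the filter through the E10.5 arrays alone, so that its rise is not independent of the filter. As processed here it was at least 2.78-fold higher at E10.5 in the WT pair and at least 1.58-fold in the other. Under normexp its log2 difference was 0.37 in the WT pair and −0.01 in the other, short of both bounds. With the fit limited to probes well above background on all 4 arrays, limma called 10 of 14 member probes, 8 of them higher, where 14.0% of 28622 probes were, and 2 lower, where 20.7% were. *Six4* and *Eya3* did not pass at any probe, except that the *Six4* probe well above background on 2 arrays was called lower under normexp and in the deposited table (adjusted p = 0.0162 and 0.0477). Under the spike-in scaling limma called 4 of the 18, those of *Six6* and *Eya4*, all higher at E10.5, where 6.63% of all probes were higher and 1.72% lower. Not called then were the falls of *Six3* and of the *Eya1* repeat probe (adjusted p = 0.662 and 1.0) and the rises of *Eya2* (0.478 and 0.233), *Six2* (0.370), *Six5* (0.709) and the other *Eya1* probes (0.269 and 0.180). These rises were no smaller under that scaling, with log2 differences of 1.11 and 1.13 for *Eya2*, 1.21 for *Six2*, 0.82 for *Six5* and 1.1 and 1.18 for *Eya1*. The falls had log2 differences of −0.77 for *Six3*, still past 1.5-fold, and −0.17 for the *Eya1* repeat probe. The fall of the repeat probe was also not called by limma after quantile normalization, without scaling, in the deposited table or without the intensity trend (adjusted p = 0.143, 0.390, 0.141 and 0.128), and that of *Six3* was called under each of these. The dimmest *Eya1* probe was not called by limma after quantile normalization, in the deposited table, under normexp, without the trend or without a filter (adjusted p = 0.0582, 0.0562, 0.142, 0.0508 and 0.0576). Without the trend *Six2*, *Six5* and *Six6* were not called either (adjusted p = 0.0742, 0.113 and 0.0758), while the dimmer *Six2* probe was (0.0423), and under normexp the third *Eya4* probe was not (0.277).

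The ratio between the labels was lower at E10.5 than at E8.5 for 7 of the 8 members well above background on all 4 arrays, *Eya3* being the exception, where it was lower for 47.4% of 18806 genes. The median of this difference was −0.40 over the members and 0.02 over all genes. Under the spike-in scaling 1 of the 8 was lower and 4.31% of all genes were, and the median of all genes was 0.72. Relative to the median of all genes, 7 of the 8 lay below it under both scalings. The difference uses all 4 arrays, and the design leaves no test of it. It was chosen after the values had been seen.

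Markers of other tissues also differed between these arrays. All 11 erythrocyte genes were higher by at least 1.5-fold on the *Dyrk2*-/- labelled array at E8.5, where 5.14% of all genes were. On the WT array of that stage 9 of the 11 were well above background. At E10.5, 7 of the 11 were higher, where 3.5% of all genes were. The summed level of the erythrocyte genes in units of the 75th percentile was 17.4 on the WT and 384 on the *Dyrk2*-/- labelled array at E8.5, with 1380 and 1600 at E10.5. The brightest of their probes was that of *Hbb-bh1* at E8.5, against *Hbb-y* at E10.5, which orders probe signals and not transcripts. The 8 yolk sac endoderm genes (brightest probe *Rbp4* at E8.5, with *Afp* at E10.5) summed to 51.0 and 33.1, and then 20.8 and 17.2. At E8.5, 6 of the 8 were lower by 1.5-fold, where 6.52% of all genes were. Between the stages 7 of the 8 were lower by 1.5-fold in either pair, where 17.5% (WT) and 13.9% of all genes were. Their medians were −4.42 (WT) and −4.16 for the 8 genes. *Afp* was higher at E10.5 (0.57 and 0.87). The 5 of 6 decidua and trophoblast genes found on the array (brightest probe *Gcm1*) summed to 15.5 and 10.2, and 18.4 and 22.7, and *Tpbpa* was below the background mark throughout. At E8.5 *Prl8a2* (−3.05 and −1.61) and *Prl3d1* (−5.40, not well above background, and −2.09) were higher by 1.5-fold on the array labelled *Dyrk2*-/-, and *Gcm1* (3.83 and 3.16) and *Dcn* (0.15 and −0.51) were lower. Neural genes (6, brightest probe *Sox2* at E8.5, with *Nes* at E10.5) summed to 19.8 and 20.1, and 55.9 and 44.4. Between the stages *Nes* (2.57 and 1.71), *Tubb3* (2.96 and 2.50) and *Dcx* (7.19 and 6.18, not well above background at E8.5) were higher. *Sox1* (−0.24 and −0.06), *Sox2* (0.05 and 0.11) and *Pax6* (−0.29 and −0.18) differed by less than 1.5-fold. At E8.5 the ratio between the labels was above 0 for 1 of 5 measured, *Nes* (0.56), against 46.5% of all genes. At E10.5 it was below 0 for 5 of 6, all but *Pax6* (0.06), against 50.1% of all genes. *Dcx* (−0.60) alone was lower by 1.5-fold there, where 4.22% of all genes were. The genes of the trunk mesoderm (4, brightest probe *Meox1*) summed to 20.0 and 23.7, and 15.8 and 15.4, and those of the surface ectoderm (4, brightest probe *Krt18*) to 144 and 128, and 27.9 and 35.3. Between the stages *Trp63* of that list differed by −0.05 (WT) and −0.08, while *Krt8* (−2.68 and −2.14), *Krt18* (−2.59 and −1.96) and *Epcam* (−1.34 and −1.27) were lower. These marker values are given under the reported scaling only. The spike-in scaling moved the median log2 ratio of all genes at E8.5 from −0.02 to −0.56, so that small differences between the labels depend on it. The part of these tissues in the values of the 9 genes was not tested.

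The lists that follow are to be set beside all genes, of which 5.14% were higher and 6.52% lower by 1.5-fold at E8.5, against 3.5% and 4.22% at E10.5. Between the stages 18.8% were higher and 17.5% lower on the WT arrays, with 17.5% and 13.9% on the others. The partners of the families, the *Dach*, *Pax* and *Tle* genes and *Sobp*, were all 13 measured. Between the genotypes 0 of them differed by 1.5-fold at either stage, while under the spike-in scaling 5 of the 13 were lower at E8.5. Their log2 ratio had a median of 0.05 at E8.5, against −0.11 at E10.5, where 12 of 13 were below 0, against 50.1% of all genes, and under the spike-in scaling 6 of 13 were. Between the stages 6 were higher and 1 lower in the WT pair of arrays, and 3 higher and 2 lower in the other, where the counts were 7 and 2 under the spike-in scaling and 6 and 2 without scaling.

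Among the placode and inner ear genes, 11 of 15 were measured at E8.5, with 1 higher and 0 lower by 1.5-fold (0 and 3 under the spike-in scaling, 0 and 0 under normexp) and a median of 0.10. At E10.5, 14 were, with 1 higher and 1 lower (2 and 0 under the spike-in scaling, 0 and 0 under normexp, 0 and 1 without scaling) and a median of −0.21. *Neurog2*, a neuronal determination factor, read −2.76 on the WT and −1.90 on the *Dyrk2*-/- labelled array at E8.5 (1.81-fold higher), but its log2 ratio was 0.32 under the spike-in scaling and 0.56 under normexp. At E10.5 *Dlx5* (−1.88 and −1.30, log2 ratio 0.59) was higher and its linked neighbour *Dlx6* (−3.35 and −3.96, log2 ratio −0.61) was lower. Under normexp these ratios were 0.40 and −0.12, below 1.5-fold, as were *Dlx5* without scaling (0.45) and *Dlx6* under the spike-in scaling (−0.45). Between the stages 6 of 14 genes of this list were higher and 4 lower on the WT arrays, with 4 and 3 on the others (8 and 3 under the spike-in scaling). *Neurog1*, *Neurod1* and *Oc90*, well above background at E10.5 alone, were counted only through that stage, and over genes measured on both arrays of a pair the counts were 3 and 3 of 10 (WT), with 1 and 3 of 11.

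Among the early kidney genes, 1 of 11 was higher at E8.5 and 0 lower, with a median of 0.11, and at E10.5 2 of 13 were lower and 0 higher, with a median of −0.26. *Gdnf*, the ligand that draws out the ureteric bud, read −2.28 and −1.69 at E8.5 (log2 ratio 0.59). Its ratio was below 1.5-fold under quantile normalization (0.53), normexp (0.42), no scaling (0.33), the deposited table (0.53) and the spike-in scaling (0.05), and under the last 0 genes of the list were higher and 3 lower. At E10.5 *Lhx1*, a gene of the renal vesicle and the nephric duct, read 0.91 and 0.08 (1.78-fold lower) and *Hoxd11* −2.75 and −3.37 (1.54-fold lower). Under normexp *Lhx1* was at −0.73 and *Hoxd11* at −0.21, and *Hoxd11* was at −0.46 under the spike-in scaling. At E10.5 the log2 ratio was below 0 for 12 of the 13, against 50.1% of all genes, and for 10 of the 13 under the spike-in scaling. Between the stages 5 were higher and 5 lower on the WT arrays, with 5 and 7 on the others (3 and 7 under normexp). *Hoxc11* and *Hoxd11* were counted only through E10.5, and over the 11 genes measured on both arrays the counts were 3 and 5 (WT), with 3 and 7.

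In the early skeletal muscle list, 2 of 6 measured genes were higher at E8.5 and 0 lower (0 and 1 under the spike-in scaling, 1 and 0 under normexp and without scaling), with a median of 0.27, and at E10.5 3 of 9 were lower and 0 higher, with a median of −0.20. *Meox2* read −1.18 and −0.15 (2.04-fold higher) and *Lbx1*, which marks migrating muscle precursors, −3.68 and −3.02 (1.59-fold higher) at E8.5. These log2 ratios were 0.50 and 0.13 under the spike-in scaling, and that of *Lbx1* was 0.39 under normexp, 0.41 without scaling and 0.10 with the mean over probes. At E10.5 *Lbx1* (−0.01 and −0.68, log2 ratio −0.67) and the myogenic factors *Myod1* (−3.42 and −4.75, 2.51-fold lower) and *Myf6* (−1.93 and −2.84, 1.89-fold lower) were lower on the array labelled *Dyrk2*-/-. Under the spike-in scaling 2 of the 9 were lower by 1.5-fold, *Myod1* (log2 ratio −1.17) and *Myf6* (−0.75), and *Lbx1* was not. The E10.5 value of *Lbx1* was named after it had been seen. *Myod1* and *Myf6* were not well above background at E8.5, and under the normexp background correction their log2 ratios were −0.32 and −0.51 and 0 of the 9 genes were lower by 1.5-fold. Between the stages 6 were higher and 0 lower on the WT arrays, with a median log2 difference of 2.43, and 5 were higher and 1 lower on the others, with a median of 1.31. *Myf6*, *Myod1* and *Myog* were counted only through E10.5. Over the 6 genes measured on both arrays 3 were higher and 0 lower (WT, median 0.55), with 2 and 1 on the others (median 0.37), and for the whole list under normexp the medians were 0.78 and 0.41, with 3 higher and 1 lower on the arrays labelled *Dyrk2*-/-, against 7 and 0 with the spike-in scaling.

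In the eye field and forebrain list, 1 of 12 genes was higher and 1 lower at E8.5 (1 and 6 under the spike-in scaling, 1 and 3 without scaling, 1 and 0 under normexp), with a median of −0.04, and 1 of 14 was higher and 1 lower at E10.5, with a median of −0.20. At E10.5 *Hesx1*, a gene of the anterior forebrain and the pituitary, read −3.40 on the WT and −2.18 on the *Dyrk2*-/- labelled array (2.33-fold higher), and *Nkx2-1*, of the ventral forebrain, lung and thyroid, read −1.63 and −2.82 (2.28-fold lower). Under normexp the log2 ratios were 0.55, below 1.5-fold, and −0.65. At E8.5 the higher gene was *Nr2e1* (−5.54 and −2.95) and the lower one *Vax1* (−4.11 and −4.89), each well above background on 1 array of that pair and named after the values had been seen. Between the stages 6 of 14 were higher and 3 lower on the WT arrays, with 7 and 3 on the others, where the counts were 2 and 2 under normexp and 8 and 1 under the spike-in scaling. In each pair 3 of the higher genes were counted through the E10.5 array alone, and over the 11 genes measured on both arrays the counts were 3 and 3 (WT), with 4 and 3.

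Under the spike-in scaling the medians of all these lists at E8.5 were below 0, at −0.48 for the partners, −0.43 for placode and inner ear, −0.43 for kidney, −0.26 for muscle and −0.58 for eye field and forebrain, so that the direction turned for all but the last. Without scaling they were −0.20, −0.15, −0.15, 0.02 and −0.30, where the median of all genes was −0.28, and with the mean over probes that of kidney was −0.10 and that of eye field and forebrain 0.03. The E10.5 medians were 0.06, −0.05, −0.09, −0.04 and −0.04 under the spike-in scaling, in the same order of lists, so that the partners turned there. That scaling put 1.42% of all genes higher and 46.0% lower at E8.5, against 5.86% and 2.59% at E10.5. Some of the lists share *Pax* genes and are not independent of each other.

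The genes whose 4 values ran closest to those of a member were found among 18806 genes well above background on all 4 arrays, by the Euclidean distance of log2 values after each gene's mean was subtracted. For *Six5*, whose ratio at E8.5 was the largest in size among members measured on all 4 arrays, they were *Lepr* (distance 0.03), *Lamb2* (0.04) and *Eva1b* (0.04). That rank depended on the scaling. Under the spike-in scaling *Six5* was at −0.10 and *Eya2* at −0.78, and without scaling they were at 0.18 and −0.51. For *Six2*, whose ratio at E10.5 (−0.50) was the largest in size, the closest genes were *Cdh22* (0.06), *Prickle3* (0.06) and *Nsg2* (0.07). All these distances are smaller than the scanner error of a single ratio, and with 4 values many genes can lie close by.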

How the data were processed

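The authors deposited the scanner output of 4 arrays, per the file headers made with Agilent Feature Extraction 10.7.1.1 (the submitters' processing notes name 9.5.1.1), whose intensity is background-subtracted and unscaled. A deposited table of normalized intensity has a median of 27.6 in each column. Its 4 columns share the same distribution, as after quantile normalization, and the method is not given in the sources used here. Outlier spots were left out, log2 values of repeat spots were averaged, and the 75th percentile of the array was subtracted. Of the probes 1 had no value and was left out, which left 56604, and 31370 (WT E8.5), 30226 (*Dyrk2*-/- labelled, E8.5), 31818 (WT E10.5) and 31943 (*Dyrk2*-/- labelled, E10.5) were well above background. No spot was saturated, which was checked for each array.

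A gene was represented by its probe with the highest mean signal and counted as changed at 1.5-fold or more where 1 array of the pair or both were well above background. Counts use the measured ratio. Where 1 array of a pair was not, the printed fold is a bound against the higher of the probe's own value and the lowest value well above background there. Such a bound, printed as at least, holds for the reported processing only, and a probe above that lowest value can still lack the mark. Under normexp *Six6*, the third *Eya4* probe and the dimmer *Six2* probe fell short of theirs. Gene names came from RefSeq accessions (GRCm38.p6, 32993 probes matched) or else the array, and coordinates from the array annotation (mm9). limma 3.58.1 (R 4.3.3, data.table, version 1.17.8) was fitted with an intensity trend, and Python 3.11.15, numpy 2.4.6, pandas 2.3.3 and matplotlib 3.10.9 were used. The fold and limma steps were first tested on simulated data.

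The members and lists were chosen with earlier results of these data known. The genes named are the members with all their probes, *Dyrk2*, from each list up to 2 rises and 2 falls at a stage among genes measured on both arrays, and the 3 closest profiles of a member. The naming rule also covered further genes of these families, which are not reported here. Alternatives were quantile normalization, normexp with an offset of 50, spike-in scaling (7 of 10 probes used), no scaling, the deposited table, other filters, the mean over probes, a 2-fold threshold, outlier spots kept and limma without trend. Leaving out repeat probes, the difference of ratios between stages and the scanner error as a yardstick were chosen after the values had been seen.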

Additional observations from a re-analysis of the deposited data

Results flagged for a closer look

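The leading probes of *Six2* and *Eya4* differed in opposite directions between the genotype labels at the 2 stages, each by more than the scanner error of its ratio. The ratio at E10.5 minus that at E8.5 (log2) was −0.83 for *Six2* and −0.66 for *Eya4*. With 1 array per group this difference between the stages was not tested, and the scanner error as a limit was chosen after the values had been seen. The next *Eya4* probe had the same order (0.36 and −0.37). The dimmer *Six2* probe was lower at both stages, but under normexp it was at 0.02 and −0.12. The mean over the *Six2* probes at E8.5 was −0.24. Under the spike-in scaling the ratios of the leading probes at E8.5 became −0.21 and −0.29, and without scaling 0.07 and −0.01. The directions were then no longer opposite beyond the scanner error. The *Eya4* ratio at E8.5 was 0.20 after quantile normalization and in the deposited table, below its scanner error of 0.22, and 0.22 under normexp, equal to that error at the printed precision.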

How the results depend on the processing

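Of 288 log2 ratios of members under alternatives, 229 stayed within the scanner error of the reported ratio and 59 moved past it. This total mixes unlike alternatives of 36 ratios each. Within the error stayed 36 with outlier spots kept, 34 after quantile normalization and 34 in the deposited table, which gave nearly the same values. The number was 33 without repeat probes, 29 under normexp, 26 with the mean over probes, 19 without scaling and 18 under the spike-in scaling. Of the 288 ratios the sign changed in 32, of which 10 lay within that error and 4 were of ratios past 1.5-fold. At E8.5 the number of members changed between genotypes, 1 as reported, was 0 under normexp, where 1.3% of all genes were higher and 1.66% lower. It was 0 under either stricter filter, since *Six6* is not well above background on the WT array. Under the spike-in scaling it was 4 (1 higher, 3 lower), where 1.42% and 46.0% of all genes were. With the mean over probes it was 2 (2 higher, 0 lower), where 5.59% and 6.16% were. The added member was *Eya3* (0.61), which has a probe below background on all 4 arrays. At E10.5 the number was 0 as reported. It was 2 without scaling (*Six2* −0.64 and *Six3* −0.61), where 6.55% of all genes were lower. With the mean over probes it was 1 (*Six2* −0.63), where 4.33% were lower. At 2-fold the stage count was 3 in place of 6 on the WT arrays (3 higher, 0 lower), where 11.5% and 7.97% of all genes were. On the others it was 2 in place of 5 (1 higher, 1 lower), where 10.6% and 6.17% were. The limma stage count fell from 12 to 4 under the spike-in scaling, and for genotype limma called 0 member probes under each alternative. The stage difference of *Six3* on the WT arrays became 0.14 with the mean over its probes, of which 2 are below background. That of *Eya1* on the arrays labelled *Dyrk2*-/- became 0.01 under the spike-in scaling, 0.27 with the mean over probes and 0.79 without repeat probes, an alternative chosen after seeing the data. Except where a filter or threshold lowers the count by its construction, the cause was not tested. Over all genes, 2430 were changed at E8.5 (1071 higher, 1359 lower), against 616 under normexp, 9888 under the spike-in scaling (295 and 9593), 3718 without scaling (512 and 3206), 1465 and 1305 under the stricter filters, 6856 without a filter and 937 at 2-fold. At E10.5, 1649 were changed (748 higher, 901 lower), against 331 under normexp (184 and 147), 853 and 582 under the stricter filters, 5205 without a filter and 615 at 2-fold, and the split was 1251 and 553 under the spike-in scaling and 568 and 1398 without scaling. Between the WT arrays 7919 were changed (4099 higher, 3820 lower), against 4759 under normexp, 12134 without a filter and 4245 at 2-fold, and 5256 and 2598 without scaling. Between the others 6737 were changed (3755 higher, 2982 lower), against 3509 under normexp, 11523 under the spike-in scaling (10520 and 1003), 10878 without a filter and 3584 at 2-fold, and 6066 and 1560 without scaling. limma called 6 probes for genotype (4 higher, 2 lower), 29 after quantile normalization, 25 under normexp (23 and 2), 41 under the spike-in scaling, 729 without scaling (114 and 615), 40 in the deposited table, 10 with the filter on all 4 arrays, 564 without a filter and 0 without trend. It called 11397 for stage (5062 higher, 6335 lower), 2698 under the spike-in scaling (2142 and 556), 6437 without trend and, without scaling, 8758 higher and 3010 lower. Signal over background limits *Six6*, the dimmer probes and *Myod1*.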

Other observations

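Apart from the families themselves, several listed genes of sense organs and muscle were measured only from E10.5 on. *Neurod1*, of placode-derived neurons, was not well above background at E8.5 and read 1.16 on the WT and 0.76 on the *Dyrk2*-/- labelled array at E10.5. *Oc90*, a gene of the otic vesicle, did the same with −0.11 and −0.50, and *Myog*, of differentiating muscle, with 1.06 and 0.64. In these 3 the WT array was the higher one by less than 1.5-fold, while *Myod1* and *Myf6*, also measured at E10.5 alone, were lower by 2.51-fold and 1.89-fold on the array labelled *Dyrk2*-/-. Under normexp the log2 ratios of *Myod1* and *Myf6* were −0.32 and −0.51, also below 1.5-fold. *Neurod1*, *Oc90* and *Myog* were chosen after their values had been seen.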
